A study of Sus scrofa with 10 samples.

Results

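In grafts of pig testis cells, 10 genes of the lipid droplet and of the adipocyte were followed by name in a table of counts per pig gene: PPARG, LPL, CD36, FABP4, DGAT2, PLIN1, PLIN2, PLIN4, CIDEC and LIPE. All 10 are among the 27376 rows. The 3 groups compared were 4 GF grafts, grown from germ cells mixed with fibroblasts, 4 FO grafts, grown from fibroblasts alone, and 2 libraries of control testis. The graft cells were primary cells of pig testis that were placed with Matrigel in the dorsal skin of a mouse host (SKID in the labels), by injection, and recovered after 6 months, so that GF and FO share the host, the carrier, the site and the time. The control titles carry the code 5D, which is not explained, and the age of the animals is not given in the sources used here. Separate animals are not stated either, and p-values measure only the spread between these libraries.

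A lipid droplet is a store of neutral lipid wrapped in coat proteins. Fat enters cells after lipoprotein lipase has freed fatty acids from circulating triglyceride, is carried by membrane and cytosolic binding proteins, is esterified by acyltransferases, and is released again by lipases. Adipocytes run this programme at a high level under the nuclear receptor PPARG, whereas in the testis droplets are known in Leydig cells, as cholesterol ester stores for steroid synthesis, and in Sertoli cells, which take up dying germ cells.

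In the Sscrofa11.1 annotation of RefSeq, CIDEC (chr13:66141836-66149801) and PPARG (chr13:68301566-68433951) lie on chromosome 13, and DGAT2 (chr9:10032163-10066082) and CD36 (chr9:99685748-99782296) on chromosome 9. The other 6 genes lie on 6 further chromosomes: PLIN2 (chr1:203683867-203709277), PLIN4 (chr2:74318624-74331920), FABP4 (chr4:55096400-55101209), LIPE (chr6:49543671-49560126), PLIN1 (chr7:55237517-55250797) and LPL (chr14:4104761-4134964).

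Total counts were 2915534 to 4917325 in GF, 4033509 to 4887878 in FO, and 5844944 and 7013911 in control testis. Values are CPM, the counts of a gene scaled to a common library total, with TMM factors; reads come from transcript 3' ends, and levels are compared between libraries, never between genes. Over a whole group, 3 counts, the floor used for a gene at 0, equal 0.187 CPM in GF, 0.169 CPM in FO and 0.236 CPM in control testis. GF 3 and GF 4, the libraries with the lowest totals, stood apart from GF 1 and GF 2: a chi-square per gene between the counts of 2 libraries was 11.8 for GF 1 and GF 2, 22.7 for GF 3 and GF 4, and 50.6 to 58.9 across these pairs, where FO pairs gave 10.01 to 18.9 and the control pair 7.10. A gene was called when its adjusted p (edgeR, over all genes tested) was under 0.05. Sums of 7 germ cell markers, chosen after values were seen, were 460.3 to 2407 CPM in GF, 1.69 to 6.73 CPM in FO, against 40.9 to 41.8 CPM in control testis. Because of that choice these sums describe the libraries and are no test of a difference between the groups. All 7 Leydig cell and all 7 Sertoli cell markers looked up had counts in every library, FO included, so that FO libraries do not hold fibroblast transcripts alone; INSL3, the Leydig cell hormone, was at 271 to 2765 CPM in FO.

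The 10 genes did not behave as a block. Of the 10, 6 had enough counts to be tested, and PLIN1, PLIN4, CIDEC and DGAT2 did not. In GF relative to control testis PLIN2, CD36 and PPARG fell and LPL rose, so that 4 of 6 were called where 25.8% of 15877 genes were (1 higher and 3 lower, against 14.0% and 11.8% of all genes). In FO relative to control testis PLIN2 and LIPE fell, 2 of 6 where 18.7% of genes were called (0 higher and 2 lower, against 8.12% and 10.6% of all genes). An unadjusted p under 0.05 was found for 5 of 6 in GF and 5 of 6 in FO against control testis, where 38.7% and 31.6% of all genes had one. Between GF and FO none of the 6 was called, where 30.5% of 13782 genes were; 2 of the 6, LPL and PPARG, had an unadjusted p under 0.05, as did 42.4% of all genes, and DESeq2 called 1, PPARG. The groups did not overlap for 1 of 6 genes in GF against FO, 5 of 6 in GF against control testis and 5 of 6 in FO against control testis, where 36.0%, 47.2% and 58.7% of all genes tested did not. The median log2 fold change of the tested genes was -0.75, -1.95 and -1.09 in these comparisons, against -0.02, 0.03 and -0.04 over all genes. Both graft groups are set against the same 2 control libraries. Without GF 3 and GF 4, FABP4 (-2.95, adjusted p = 0.0178) and CD36 (-1.76, adjusted p = 0.0352) were called lower in GF than in FO. In that setting 1 gene was higher and 4 were lower in GF than in control testis, and 2 were higher and 3 lower in FO.

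**Figure D1:**
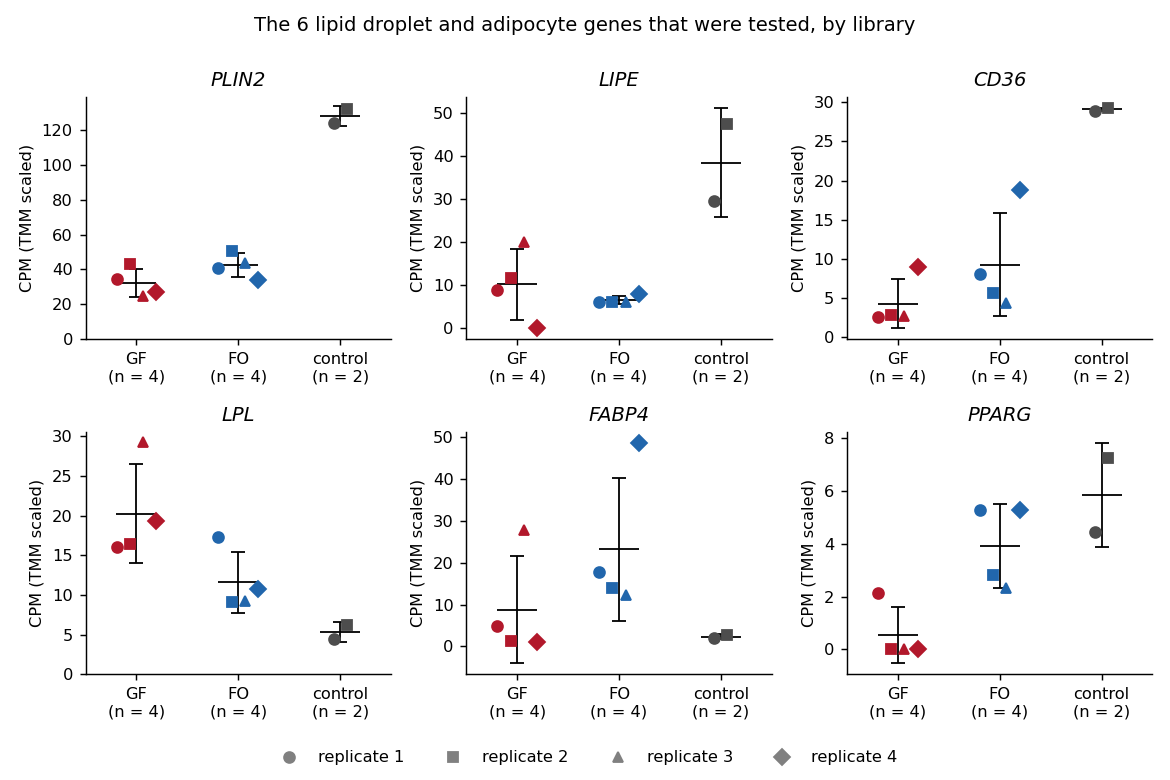
Level (TMM-scaled CPM, one panel per gene) of the 6 tested genes in GF, FO and control testis; symbols are libraries, horizontal lines are group means and error bars SDs. PLIN2, CD36 and LIPE were highest in the control libraries, LPL averaged highest in GF, and FABP4 was highest in FO 4 at 48.7 CPM.

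PLIN2 coats droplets in most cell types, adipocytes being the ones that replace it by PLIN1 as they mature. It had 34.2, 42.9, 24.5 and 27.3 CPM in GF, 40.9, 50.6, 44.0 and 33.8 CPM in FO, against 124 and 132 CPM in control testis. Every graft library lay below both control libraries, while GF and FO overlapped. The log2 fold change was -1.99 ± 0.27 (SE, adjusted p = 0.000294) for GF against control testis and -1.60 ± 0.27 (adjusted p = 0.00135) for FO against control testis, and both calls held in each alternative run. Between GF and FO it was -0.39 ± 0.26 (95% interval -0.96 to 0.18, adjusted p = 0.279). In bulk tissue, fewer cells of a type and less RNA per cell cannot be told apart. The sum of the 7 Leydig cell markers was lower in both graft groups too. It was 1427 to 3090 CPM in GF, 489 to 3742 CPM in FO, against 14056 to 16673 CPM in control testis. Most of the control sum was INSL3, with a mean of 9468 CPM. Against control testis 5 of the 7 were called lower in GF and 6 in FO, and 0 higher. NR5A1, however, averaged 68.7 CPM in GF, near its control mean of 71.0 CPM. HSD3B1 averaged 62.9 CPM in FO, above its control mean of 54.1 CPM. Within FO the sum ranged widely, while PLIN2 stayed at 33.8 to 50.6 CPM. The part of Leydig cells in the PLIN2 difference was not tested.

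The coat proteins that are known as adipocyte forms were nearly uncounted. PLIN1, which guards the adipocyte droplet against lipolysis, had 1 count in GF 3, 2 in FO 4, and 0 in each of the other 8 libraries. PLIN4, which coats small new droplets, had 0 counts in the 4 GF libraries, 2 in FO 2 and 9 in FO 4, and 0 in the other FO libraries and in control testis. CIDEC, which fuses droplets into one large one, had 0 counts in GF, 2 in FO 3 and 3 in control 2. None of these genes passed the filter on low counts, so no difference could be tested at this depth, and with the filter removed none was called in any comparison (the lowest adjusted p was 0.107, for PLIN4 in GF against FO). Of the 11 PLIN4 counts in FO, 9 came from 1 library.

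**Figure D2:**
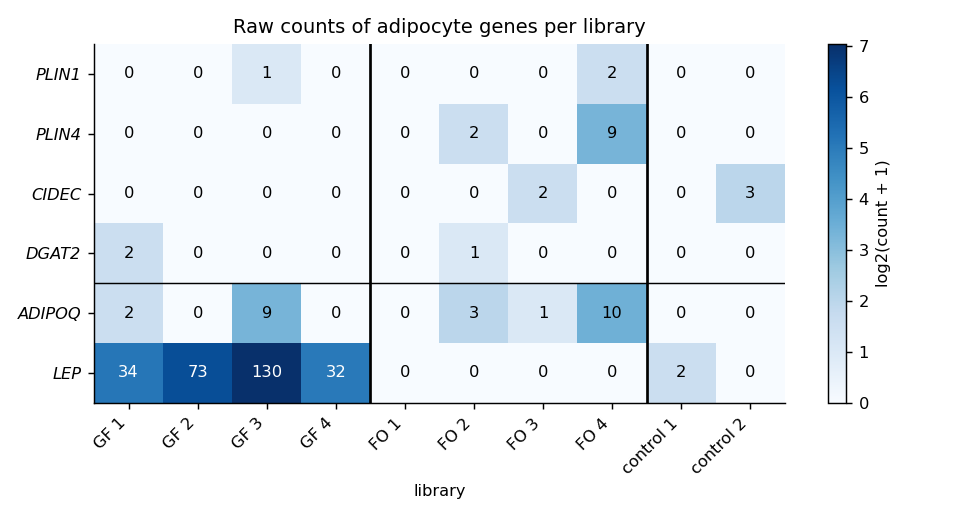
Raw counts, printed in each cell and shaded by log2(count + 1), of the 4 untested genes and the adipocyte hormones ADIPOQ and LEP (rows) in each GF, FO and control testis library (columns). PLIN1, PLIN4, CIDEC and DGAT2 had 9 counts or fewer in each library, whereas LEP had 32 to 130 counts in GF.

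LPL, the lipase that frees fatty acids from lipoproteins at the vessel wall, ran the other way. It had 16.0, 16.4, 29.3 and 19.3 CPM in GF, 17.3, 9.12, 9.22 and 10.8 CPM in FO, against 4.44 and 6.18 CPM in control testis. All 8 graft libraries were above both control libraries, and FO 1 lay within the GF range. GF 3 and FO 1, each the highest of its group for LPL, also had the highest skeletal muscle marker sums, 193 and 752 CPM. The part of muscle in the LPL values was not tested. On the log2 scale the fold change was 1.92 ± 0.47 (adjusted p = 0.00983) for GF against control testis, 1.11 ± 0.46 (adjusted p = 0.108) for FO against control testis, and 0.81 ± 0.36 (95% interval 0.02 to 1.60, unadjusted p = 0.0444, adjusted p = 0.108) for GF against FO. The call rested on both controls: the adjusted p was 0.132 without control 1 and 0.0783 without control 2. GPIHBP1, which holds LPL at the capillary wall, had only 7 counts in GF, 24 in FO and 28 in control testis.

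CD36, the membrane receptor that takes up fatty acids, is also made by capillary endothelium and macrophages. It had 2.57, 2.88, 2.75 and 8.97 CPM in GF, 8.07, 5.65, 4.40 and 18.8 CPM in FO, against 28.9 and 29.2 CPM in control testis. Each graft library was below both control libraries, and GF 4 and FO 4 stood above the rest of their groups. Relative levels on the log2 scale were -2.79 ± 0.62 (adjusted p = 0.00571) for GF against control testis, -1.65 ± 0.60 (adjusted p = 0.0719) for FO against control testis and -1.12 ± 0.62 (95% interval -2.48 to 0.24, adjusted p = 0.192) for GF against FO. The first of these calls was lost without control 2 (adjusted p = 0.0509). Leaving out 1 graft library made a call elsewhere: without FO 4, FO against control testis was -2.27 (adjusted p = 0.0244). Without GF 4, FO against control testis was called too (adjusted p = 0.0256), and GF against FO was -1.73 (adjusted p = 0.0453).

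FABP4, the fatty acid carrier of the adipocyte cytosol, which endothelium and macrophages make too, spread widely within GF. It had 4.92, 1.26, 27.9 and 1.04 CPM in GF, 17.8, 13.9, 12.4 and 48.7 CPM in FO, against 1.97 and 2.71 CPM in control testis. All FO libraries were above both control libraries, whereas GF spanned values below control testis and, in GF 3, above 3 of the 4 FO libraries. Fitted log2 fold changes were -1.42 ± 0.87 (95% interval -3.31 to 0.46, adjusted p = 0.234) for GF against FO, 1.85 ± 1.12 (adjusted p = 0.242) for GF against control testis, and 3.29 ± 1.18 (adjusted p = 0.0679) for FO against control testis. Without GF 3 the GF against FO value was -3.23 and called (adjusted p = 0.00766). The FO against control testis value was called without GF 2 (adjusted p = 0.0443), GF 3 (0.00873) or GF 4 (0.0369), which enter that fit through the shared spread alone. The related carrier FABP5 fell in both graft groups, with 9.66 to 13.1 CPM in GF, 10.1 to 35.5 CPM in FO, against 140 to 183 CPM in control testis (log2 fold change -3.76 ± 0.40 in GF, adjusted p = 5.55e-05, and -3.08 ± 0.39 in FO, adjusted p = 0.000174).

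FO 4 was the FO library with the most PLIN1, PLIN4, FABP4, CD36 and LIPE, and it equalled FO 1 for PPARG. Its FABP4 level was 3.31 times and its CD36 level 3.12 times the mean of the other FO libraries. Vessel and macrophage markers moved with it: the sum of 10 endothelial genes was 283 CPM in FO 4 and 128 to 153 CPM in the other FO libraries, and the sum of 12 macrophage genes reached its FO maximum of 373 CPM there. Across groups the endothelial sum was 54.9 to 93.5 CPM in GF, 128 to 283 CPM in FO, against 328 to 346 CPM in control testis. Much of its gap between GF and FO was EMCN, which ranged from 1.04 to 11.8 CPM in GF and from 50.5 to 79.5 CPM in FO. Of 8 endothelial genes tested there, EMCN alone was called (median log2 fold change of the 8, -0.75). EMCN was also called higher in FO than in control testis, whereas PECAM1, VWF and ERG were called lower. The sum therefore does not show that endothelial genes as a set differed between GF and FO. The macrophage sum was 57.3 to 93.3 CPM in GF, 185 to 373 CPM in FO, against 676 to 724 CPM in control testis. GF 4, with the most CD36 in GF, also had the highest endothelial sum of GF, 93.5 CPM, and the lowest macrophage sum, 57.3 CPM. GF 1, however, had a nearly equal endothelial sum, 90.1 CPM, with the least CD36 of GF, 2.57 CPM. Skeletal muscle markers stood apart in other libraries, at 193 CPM in GF 3 and 752 CPM in FO 1, beside 4.06 to 26.4 CPM elsewhere. The part of vessel, macrophage and muscle cells in the FABP4, CD36 and LPL values was not tested, and mouse host cells may have been missed or counted in part.

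**Figure D3:**
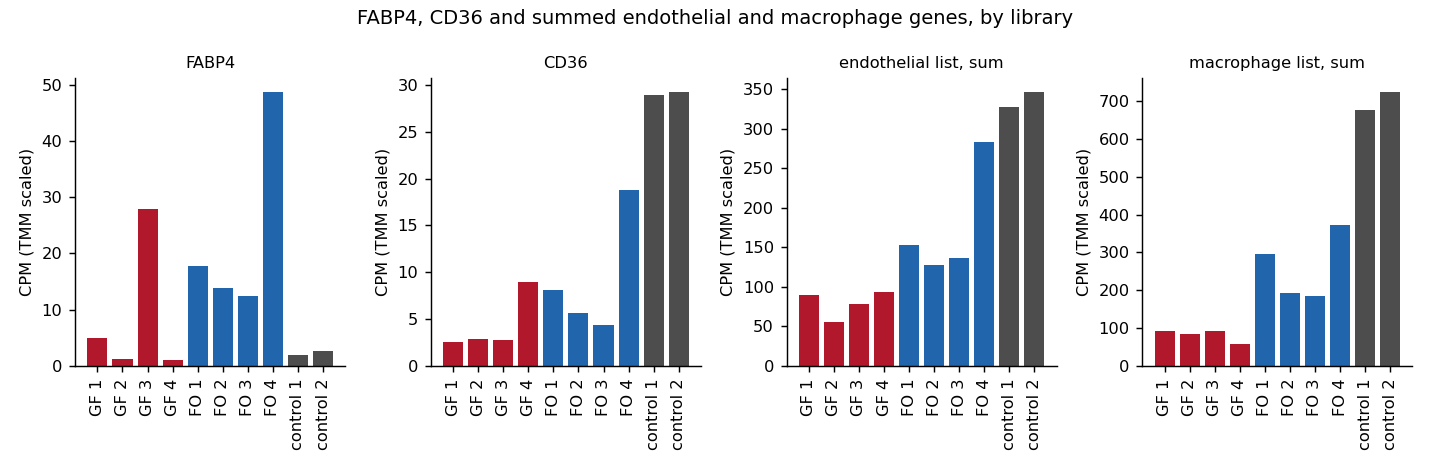
Bars give, for each GF, FO and control testis library, the level (TMM-scaled CPM) of FABP4 and CD36 and the summed level of the endothelial and macrophage lists. FO 4 is the highest FO library in all 4 panels, and both control libraries combine the highest sums with FABP4 under 3 CPM.

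PPARG, the receptor that drives adipocyte differentiation, was barely counted in GF. It had 2.14, 0, 0 and 0 CPM in GF, 5.29, 2.82, 2.30 and 5.29 CPM in FO, against 4.44 and 7.24 CPM in control testis. All 10 GF counts came from GF 1, and GF lay below every FO and control library. Its log2 fold change was -2.67 ± 1.05 (95% interval -4.96 to -0.39, unadjusted p = 0.0254, adjusted p = 0.0719) for GF against FO, -3.26 ± 1.13 (adjusted p = 0.0476) for GF against control testis and -0.58 ± 1.05 (adjusted p = 0.756) for FO against control testis. Without GF 1 it was at least 14.5-fold lower in GF than in FO (adjusted p = 0.00411) and at least 22.3-fold lower than in control testis, the bound being taken at 3 counts over the group. The call against control testis was lost without any other single library, with adjusted p of 0.0534 to 0.26.

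LIPE, hormone-sensitive lipase, frees fatty acids in adipocytes and cholesterol from its esters in steroid-making cells. It had 8.77, 11.7, 19.98 and 0 CPM in GF, 6.12, 6.08, 6.07 and 7.83 CPM in FO, against 29.4 and 47.5 CPM in control testis. Both control libraries were above all grafts, FO values were tight, and GF ran between 0 counts in GF 4 and 65 counts in GF 2, GF 3 being highest in CPM. The log2 fold change was 0.64 ± 0.78 (95% interval -1.06 to 2.33, adjusted p = 0.566) for GF against FO, -1.92 ± 0.76 (adjusted p = 0.0791) for GF against control testis and -2.55 ± 0.77 (adjusted p = 0.0335) for FO against control testis. The FO call was lost without any single FO library (adjusted p of 0.0687 to 0.088) or either control (0.103 and 0.268), and GF against control testis was called without GF 3 (-2.44, adjusted p = 0.0322) or GF 4 (-1.52, adjusted p = 0.0122). DGAT2, which adds the last acyl chain of triglyceride, had 2 counts in GF 1, 1 in FO 2 and 0 elsewhere.

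**Figure D4:**
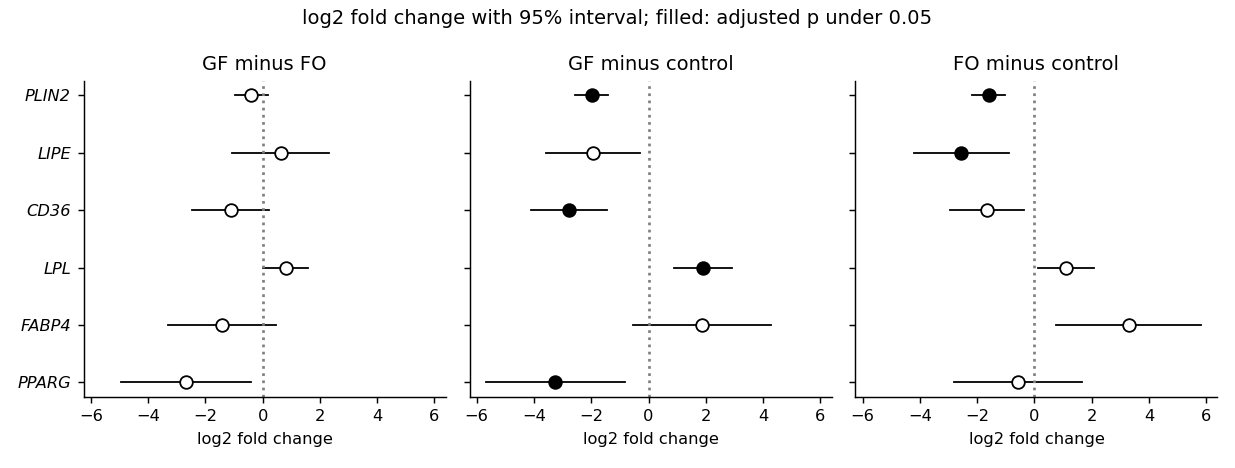
Log2 fold change of the 6 tested genes, with 95% intervals, for GF against FO, GF against control testis and FO against control testis; filled points are called genes. PLIN2 lies at -1.99 and -1.60 against control testis with the narrowest intervals, and the FABP4, PPARG and LIPE intervals are the widest.

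The rest of the pathway was read from 8 lists of droplet, triglyceride, lipolysis, uptake, oxidation, transcription factor, adipokine and preadipocyte genes. Of 129 listed genes 126 were in the table. Between GF and FO 94 were tested, of which 18 rose, 11 fell and 65 were not called, which makes 30.9% called, near the 30.5% of all genes. By list, among 16 triglyceride synthesis genes 4 rose and 0 fell (median log2 fold change 0.62), among 12 droplet coat genes 3 rose and 1 fell (-0.16), among 7 lipolysis genes 3 rose and 1 fell (-0.59), and among 6 preadipocyte genes 0 rose and 2 fell (-1.09). Over all 13782 genes tested 2419 rose and 1786 fell, with a median of -0.02, and differences between the lists were not tested. Without FO 1 and GF 3 the totals of the 8 lists were 9 higher and 7 lower of 95 (2312 of 13948 genes called in all), and the triglyceride synthesis count was 1 higher of 15. Without GF 3 and GF 4 the totals were 17 and 17 of 99 (5305 of 14714 genes called in all). With total counts as the only scaling the median of all genes moved to 0.13 and 69.1% of calls were higher in GF, against 57.5% with TMM.

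**Figure D5:**
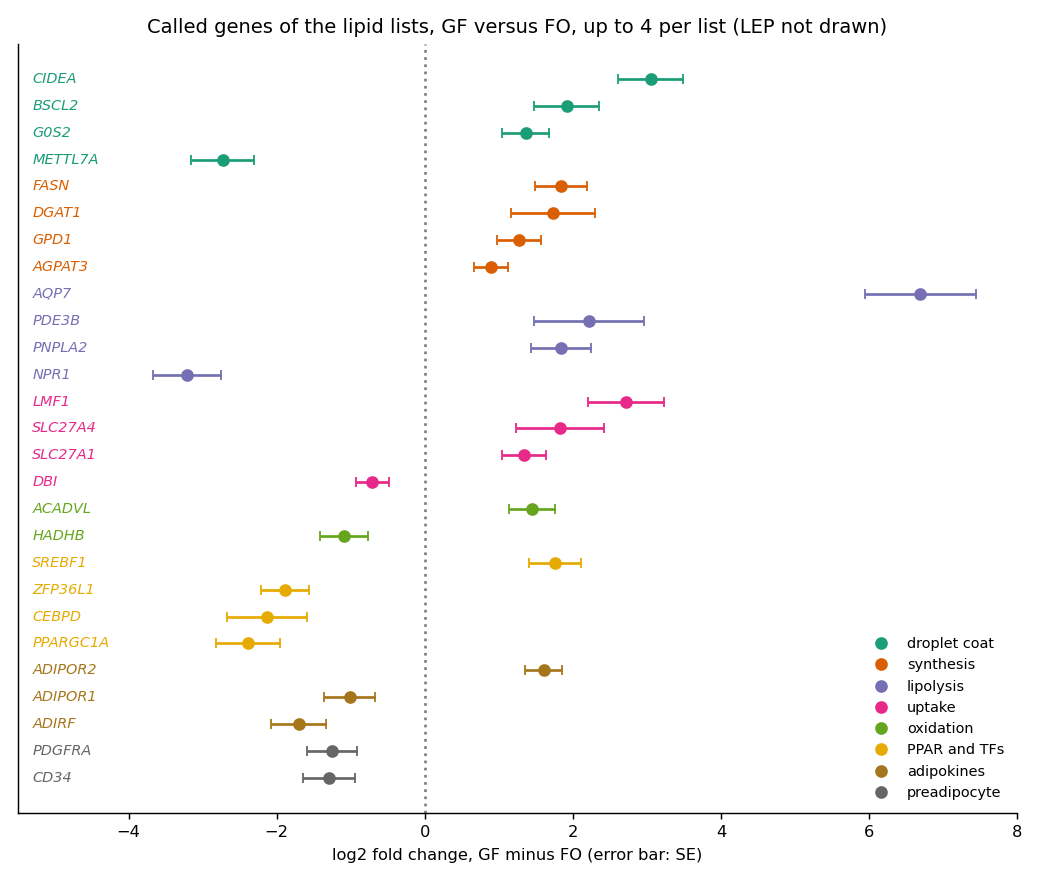
Log2 fold change of GF against FO, with SE as error bar, of the called genes of the 8 lipid lists (up to 4 per list, those with the lowest p, coloured by list; LEP, at 0 in FO, is not drawn). The 4 triglyceride synthesis genes lie to the right of 0 (higher in GF), both preadipocyte genes lie to the left, and AQP7 lies farthest right at 6.69.

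CIDEA, the droplet-fusing relative of CIDEC, had the lowest adjusted p of the coat genes in GF against FO. It had 75.9, 77.8, 151 and 214 CPM in GF, 7.79, 13.7, 26.4 and 14.6 CPM in FO, against 11.3 and 7.99 CPM in control testis, and its log2 fold change was 3.05 ± 0.44 against FO (adjusted p = 0.000632) and 3.74 ± 0.58 against control testis (adjusted p = 0.000636). No GF library overlapped another group, and the GF against FO value was 2.27 without GF 3 and GF 4. BSCL2 (seipin), which shapes new droplets, had 31.4, 47.0, 142 and 66.3 CPM in GF, 15.6, 14.5, 20.1 and 26.0 CPM in FO, against 18.6 and 16.6 CPM in control testis; the GF against FO value of 1.92 (adjusted p = 0.00661) was 1.32 without GF 3 and 1.03 without GF 3 and GF 4. G0S2, an inhibitor of the lipase PNPLA2, rose by 1.36 ± 0.32 in GF against FO (adjusted p = 0.00784). METTL7A, a droplet-associated membrane protein, fell by 2.73 ± 0.43 (adjusted p = 0.00094).

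Called genes that rose in GF against FO came from both the synthesis list and the list of lipolysis and its control. From the latter, AQP7, PNPLA2 and PDE3B rose and NPR1 fell. The PDE3B value was 2.22 ± 0.74 (adjusted p = 0.0391), and its groups overlapped. Its call was lost without GF 3 (adjusted p = 0.0855), FO 1 (0.106) or FO 2 (0.113) and with the replicate block (0.126), among other runs. Without GF 2 it was not tested. PDE3B averaged 7.35 CPM in GF, 1.56 CPM in FO and 21.2 CPM in control testis. It was called lower in FO than in control testis (-3.73 ± 0.72, adjusted p = 0.00308). FASN, fatty acid synthase, had 239, 267, 587 and 611 CPM in GF, 90.2, 112, 163 and 113 CPM in FO, against 281 and 273 CPM in control testis, and its GF against FO value was 1.84 ± 0.35 (adjusted p = 0.00248). GPD1, which makes the glycerol backbone, rose by 1.27 ± 0.30 (adjusted p = 0.0078), and SREBF1, the transcription factor of the lipogenic genes, by 1.76 ± 0.35 (adjusted p = 0.00344). FASN and SREBF1 were also called lower in FO than in control testis, by 1.21 ± 0.37 (adjusted p = 0.035) and 1.20 ± 0.38 (adjusted p = 0.042). SREBF1 averaged 23.2 CPM in GF, 6.87 CPM in FO and 15.7 CPM in control testis. It was not called in GF against control testis. PNPLA2, the first lipase of triglyceride breakdown, had 52.8, 59.6, 186 and 126 CPM in GF, 21.2, 25.2, 36.0 and 37.2 CPM in FO, against 41.3 and 41.0 CPM in control testis, with a GF against FO value of 1.83 ± 0.41 (adjusted p = 0.00575). The groups did not overlap for FASN or PNPLA2 between GF and FO. The GF values of both genes were higher in GF 3 and GF 4, and without these libraries the GF against FO values were 1.07 for FASN and 0.90 for PNPLA2, still called. Without FO 1 and GF 3 the calls of PNPLA2 (1.27, adjusted p = 0.0533) and GPD1 (1.13, adjusted p = 0.0524) were lost.

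AQP7 and LEP were counted almost only in GF. AQP7, a glycerol channel of adipocytes that is also known from sperm cells, had 48.6, 92.6, 185 and 51.8 CPM in GF, 0, 2.61, 0.419 and 0.423 CPM in FO, against 0.658 and 0.302 CPM in control testis. Its log2 fold change against FO was 6.69 ± 0.75 (adjusted p = 0.000177), 8.17 without FO 2 and 5.78 without FO 1 and GF 3. LEP, the adipocyte hormone leptin, had 34, 73, 130 and 32 counts in GF, 0 in each FO library, and 2 and 0 in control testis, which made it at least 99.0-fold higher in GF than in FO (adjusted p = 0.000826), or at least 62.5-fold without GF 3. Against control testis the ratio was 107 (95% counting interval 29.2 to 885, adjusted p = 0.00424); it was 67.3 without GF 3, at least 37.1 without control 1 and 51.0 without control 2, where the call was lost (adjusted p = 0.0603). ADIPOQ, the adipocyte hormone adiponectin, did not follow LEP, with 2, 0, 9 and 0 counts in GF, 0, 3, 1 and 10 in FO and 0 in both control libraries. Germ cell markers, given above and chosen after values were seen, moved with GF as well. Within GF their sum was 460, 1262, 2407 and 555 CPM, highest in GF 3, as were AQP7 and LEP in CPM. CIDEA was instead highest in GF 4, where the Sertoli marker sum was highest too (14583, 16574, 39895 and 45046 CPM in GF). The part of germ cells or Sertoli cells in the AQP7, LEP and CIDEA values was not tested.

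NPR1 and PPARGC1A, which regulate lipid use, were highest in FO. NPR1, the natriuretic peptide receptor that stimulates lipolysis in human adipocytes, had 5.35, 2.88, 1.38 and 1.38 CPM in GF, 26.7, 34.3, 24.9 and 20.5 CPM in FO, against 1.81 and 3.32 CPM in control testis. PPARGC1A, a coactivator of PPARG, had 4.71, 5.94, 7.23 and 1.73 CPM in GF, 23.9, 27.8, 18.0 and 33.8 CPM in FO, against 7.24 and 6.03 CPM in control testis. Neither gene overlapped between FO and the other groups. GF against FO gave -3.21 ± 0.46 (adjusted p = 0.000621) for NPR1 and -2.38 ± 0.43 (adjusted p = 0.00196) for PPARGC1A. FO against control testis gave 3.36 ± 0.62 (adjusted p = 0.00231) and 1.96 ± 0.52 (adjusted p = 0.0179); the NPR1 call was lost without control 1 (adjusted p = 0.0573), and the PPARGC1A call without FO 4 (0.0546) or either control (0.131 and 0.195).

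Against control testis, 105 genes of the 8 lists were tested in each graft group. In GF 17 rose, 28 fell and 60 were not called, 42.9% called where 25.8% of all genes were. In FO 8 rose, 23 fell and 74 were not called, 29.5% where 18.7% of all genes were, and without GF 3 and GF 4, which enter through the shared spread, 19 rose and 34 fell of 104, where 6510 of 15305 genes were called in all. Fatty acid oxidation moved furthest in number: of 15 genes 0 rose and 9 fell in GF (median log2 fold change -1.44), and 0 rose and 8 fell in FO (-1.21). ACADM, the medium-chain acyl-CoA dehydrogenase, had 28.2, 25.8, 12.7 and 11.04 CPM in GF, 15.6, 19.3, 17.4 and 16.7 CPM in FO, against 92.1 and 100.3 CPM in control testis. It fell by 2.29 ± 0.35 in GF (adjusted p = 0.000629) and by 2.48 ± 0.35 in FO (adjusted p = 4e-04), and no graft library reached a control one.

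Among the other genes, ANGPTL4, an inhibitor of LPL, fell in both graft groups. It had 22.2, 6.66, 28.2 and 23.8 CPM in GF, 7.24, 6.95, 9.22 and 14.6 CPM in FO, against 158 and 177 CPM in control testis. In log2 units it fell by 3.06 ± 0.44 in GF (adjusted p = 0.000372) and by 4.13 ± 0.45 in FO (adjusted p = 5.97e-05). ELOVL6, which lengthens fatty acids, fell by 3.09 ± 0.56 in GF (adjusted p = 0.00164) and by 3.02 ± 0.55 in FO (adjusted p = 0.0022). SLC27A3, of the fatty acid transport protein family, rose by 2.10 ± 0.37 in GF (adjusted p = 0.00149) and by 2.00 ± 0.37 in FO (adjusted p = 0.00236), the FO call being lost without control 1 (adjusted p = 0.0647).

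The adipocyte label was set against 15 marker genes, of which 14 are in the table. Their sum was 88.3 to 175 CPM in GF, 76.8 to 131 CPM in FO, against 89.0 to 108 CPM in control testis, so that the groups overlapped, and 4 to 8 of the 14 markers were at 0 in each library. Without the 4 markers that are among the 10 genes, the sum was 75.3 to 127 CPM in GF, 52.9 to 74.5 CPM in FO, against 57.1 to 57.6 CPM in control testis, and GF then overlapped neither group. GPD1, which is also a triglyceride synthesis gene, made up 43.9 to 87.0 CPM of that sum in GF, 18.4 to 31.6 CPM in FO, against 16.4 to 18.4 CPM in control testis. LEP added 7.27 to 44.8 CPM in GF. The markers CFD, KLF15, CEBPA and SLC2A4 went the other way, with lower means in GF than in FO or control testis. CFD, for example, averaged 12.6 CPM in GF, 21.0 CPM in FO and 23.3 CPM in control testis. CFD, KLF15 and CEBPA were not called in GF against FO. SLC2A4, with 5 counts in GF and 51 in FO, had too few counts to be tested there. ADIPOQ averaged 0.882 CPM in GF, 0.744 CPM in FO and 0 CPM in control testis. The defining markers were split: PLIN1, CIDEC and ADIPOQ had at most 10 counts in any library, whereas LEP had 32 to 130 counts in every GF library. No part of these libraries was assigned to adipocytes, and the 10 genes are described by name. Markers of keratinocytes and sebaceous cells of the skin were at 0 to 1.72 CPM in every library.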

How the data were processed

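The authors deposited raw counts per gene name, 1 column for each of 10 QuantSeq libraries (a method that counts reads at transcript 3' ends). Per the submitters' processing notes, Sscrofa11.1 and DESeq2 1.42.0 are named, with no role stated; no source used here gives the aligner, the counting program or the strand setting, and counts of overlapping or antisense genes are uncertain. Columns were matched to titles by letters and number, the columns named F being taken as FO; the control labels share their cell type field with grafts, and titles set the groups. Of the names, 26836 have a RefSeq entry, and 26 rows named as dates were never named.

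Genes were filtered with filterByExpr (minimum count 10), TMM-scaled and tested with edgeR 4.0.16 (robust quasi-likelihood F test, R 4.3.3) with Benjamini-Hochberg adjustment over all genes tested. GF against FO used the 8 graft libraries, and comparisons with control testis used all 10 in a single fit, since control has 2. CPM is count over TMM-scaled total. Counting intervals and floors cover counting error only. The tests were checked on simulated data. Alternatives were DESeq2, other scaling, no filter, other libraries in the fit, the replicate number as a block, equal totals, and leaving out libraries.

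The 10 genes, the 15 lists and the rules were chosen with earlier results of these data known. Besides the 10, up to 4 called genes with the lowest p per list and comparison may be named, and defining cell markers. GPIHBP1, CFD, KLF15, SLC2A4 and the germ cell markers were added after values were seen. The smooth muscle and Sertoli sums also moved with the groups. The smooth muscle sum was 569 to 773 CPM in GF, 186 to 305 CPM in FO, against 338 to 392 CPM in control testis. The Sertoli sum was 14583 to 45046 CPM in GF, 4804 to 8589 CPM in FO, against 4610 to 5163 CPM in control testis. Most of the Sertoli sum was CLU, at 13672.2 to 43858.5 CPM in GF and 3887.5 to 7704 CPM in FO. Of the 7 Sertoli genes 3 rose and 2 fell in GF against FO. WT1 was among those that fell, with means of 211 CPM in GF and 463 CPM in FO. AMH rose against FO but was lower in GF than in control testis (100 and 482 CPM).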

Additional observations from a re-analysis of the deposited data

Results flagged for a closer look

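In 10 of 18 groups of 4 libraries, 1 library stood apart: its gap to the nearest other library, as a share of the group's range, passed 0.829. Chance passes that cut in about 1 in 20 groups only where the values of a group are normally distributed. A group with counts in only 1 library always passes it, so the 10 flags cannot be set against that rate. The share was 0.951 for CD36 in GF 4, 0.855 for FABP4 in GF 3, 0.85 for FABP4 in FO 4 and 0.972 for LIPE in FO 4, each the highest of its group. It was 1, because the other 3 libraries were at 0, for PPARG in GF 1 (10 counts), PLIN1 in GF 3 (1 count) and in FO 4 (2 counts), CIDEC in FO 3 (2 counts), and DGAT2 in GF 1 (2 counts) and in FO 2 (1 count). The last 5 of these rest on 1 or 2 counts. The LIPE flag in FO 4 is a small step, 7.83 CPM beside 6.07 to 6.12 CPM in the other FO libraries.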

How the results depend on the processing

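No direction was reversed for any of the 6 tested genes under the alternatives run; over them, 316 results kept their call or lack of one, 25 gained a call and 24 lost it, and the PLIN2 calls held throughout. Genes called numbered 4205 for GF against FO, 4091 for GF against control testis and 2972 for FO against control testis. They numbered 2312 for GF against FO without FO 1 and GF 3, 2201 for GF against control testis and 6600 for FO against control testis when only the compared groups were fitted, and 6510 for FO against control testis without GF 3 and GF 4. Leaving out 1 library at a time gave 2902 to 4842, 1141 to 4729 and 796 to 3987.

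Of the 6 genes, the number lower in GF than in FO, 0 in the report, was 1 with DESeq2 (PPARG, adjusted p = 0.0484), 1 without FO 1 and GF 3, 2 without GF 3 and GF 4, and 0 to 1 with 1 library left out. Against control testis, with 1 library left out, 0 to 1 were higher and 1 to 3 lower in GF, and 0 to 1 were higher and 1 to 3 lower in FO. In FO, where 0 were higher and 2 lower, 1 was higher with DESeq2, 2 with only the compared groups fitted, 1 without FO 1 and GF 3 and 2 without GF 3 and GF 4, and 1 was lower without FO 1 and GF 3. Without GF 3 and GF 4, 4 were lower in GF (3 in the report) and 3 in FO. PPARG in GF against control testis also lost its call with total counts alone (adjusted p = 0.0604), with only the compared groups (0.163) and without FO 1 and GF 3 (0.0922). The cause was not tested.

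Same-numbered GF and FO libraries had correlations of their deviations of 0.0549, 0.218, 0.0764 and 0.103, so the numbers were not taken to pair the libraries. With the replicate block, genes called numbered 4335, 3282 and 3219, and 1 of the 6 genes was lower in GF than in FO (PPARG, -3.69, adjusted p = 0.0443). With the block PPARG in GF (adjusted p = 0.0717) and LIPE in FO (0.0744) lost their call against control testis, and CD36 in FO gained one (-2.19, 0.00592). Of the list genes named by the rule, 20 of 28 kept their call without each library for GF against FO, 14 of 31 for GF against control testis and 8 of 24 for FO against control testis. PLIN1, PLIN4, CIDEC and DGAT2 are limited by depth: 3 counts equal 0.452 to 1.04 CPM in a library.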

Other observations

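Of 6 tested genes known from preadipocytes, the fibroblast-like precursors of fat cells, 0 rose, 2 fell (PDGFRA and CD34) and 4 were not called in GF against FO. PDGFRA, a receptor of mesenchymal precursors, had 92.4, 88.1, 35.1 and 42.1 CPM in GF, 205, 109, 143 and 159 CPM in FO, against 138 and 134 CPM in control testis. CD34, a marker of precursor and endothelial cells, had 12.6, 6.30, 13.8 and 8.63 CPM in GF, 26.2, 20.2, 22.8 and 32.2 CPM in FO, against 22.5 and 25.2 CPM in control testis. GF overlapped neither group for these genes. The log2 fold change of GF against FO was -1.25 ± 0.33 for PDGFRA (adjusted p = 0.0147; 0.059 without FO 1 and 0.0953 without FO 1 and GF 3) and -1.29 ± 0.35 for CD34 (adjusted p = 0.015; 0.0578 without FO 4). PDGFRB, a receptor of pericytes, fell in GF against control testis by 3.03 ± 0.46 (adjusted p = 0.000564) and in FO by 2.12 ± 0.45 (adjusted p = 0.00582; 0.0804 without control 2). DPP4, a marker of early precursors in mouse fat, had 0 counts in GF, 24 in FO and 70 in control testis, at least 29.4-fold lower in GF than in control testis (adjusted p = 0.00204) and at least 16.1-fold lower without control 1.

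The receptors of adiponectin moved apart in GF. ADIPOR2 had 165, 175, 210.4 and 294 CPM in GF, 53.2, 74.7, 78.7 and 71.7 CPM in FO, against 63.5 and 76.6 CPM in control testis, with a GF against FO value of 1.61 ± 0.25 (adjusted p = 0.000959). ADIPOR1 had 24.6, 9.19, 11.02 and 11.04 CPM in GF, 28.7, 29.1, 29.1 and 26.4 CPM in FO, against 35.2 and 37.1 CPM in control testis. Its GF against FO value was -1.01 ± 0.35 (adjusted p = 0.0434), and the call was lost without any single library other than GF 1 (adjusted p of 0.0726 to 0.101).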
